A study of Drosophila melanogaster with 6 samples.

Results

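The methuselah family of Drosophila melanogaster is a group of secretin-type G protein-coupled receptors that takes its name from mth (methuselah). The members described here were the genes mth, mthl1, mthl2, mthl3, mthl4, mthl5, mthl6, mthl8, mthl9 and mthl10, found by their symbol in the annotation of the array. Of these 10 genes, 9 had a probe set in that annotation, out of 11982 genes named by a single symbol, and mthl3 was not analysed here. The 9 genes were read by 12 probe sets, with 1 each for 6 genes and 2 each for mthl4, mthl8 and mthl10.

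The mutant stock, Calment1/4, had been isogenized into the CS10 background and was compared with the Canton-S stock CanS. RNA came from pools of 30 to 35 whole adult females kept at 25 °C, with 3 arrays per stock that the titles call biological replicates. The age of the flies, and whether the pools came from separate cultures, are not given in the sources used here, so p-values measure the spread between these pools. Background and mutation change together between the stocks, and their effects cannot be told apart. No gene or synonym in the tables is called Calment, so the mutated gene could not be found by that name.

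Mutants of mth are known for a long adult life, which gave the gene its name, and for resistance to heat, starvation and oxidative damage. The receptors of the family span the membrane several times, carry a large extracellular part and signal through G proteins, and for most of them no ligand is known. Peptides of Stunted, encoded by sun, activate Mth, and the seminal Sex peptide SP has been reported to do so as well. Mthl1, also called Mist, receives the signal Fog during gastrulation, and Mthl10 receives growth-blocking peptides encoded by the Gbp genes.

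In adult females of the Calment1/4 mutant, 1 family member passed the adjusted test against CanS. It was mthl2, a receptor without a known ligand, which fell by 0.81 on the log2 scale in Calment1/4, or 1.75-fold, a call that was lost when any 1 of 4 of the 6 arrays was left out. Its probe set was dim, with a Calment1/4 mean under the 25th percentile of all probe sets, so the floor of the array may affect the size of this fall. The founding member mth differed by -0.06 with a 95% confidence interval of -0.26 to 0.13. The receptors of Fog and of the growth-blocking peptides, mthl1 and mthl10, did not pass the test either.

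Each probe set has 1 log2 expression value on each array, and the 6 arrays share a scale. A difference of 1 is a 2-fold change, and all differences are Calment1/4 minus CanS. The test was limma's moderated test over all 18769 probe sets with Benjamini-Hochberg adjustment and a threshold of 0.05. It called 87 probe sets, or 0.464% of those tested, 50 higher and 37 lower in Calment1/4, which are 0.266% and 0.197% of those tested. At least 2-fold calls were 38, or 0.202%, with no family member among them.

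The arrays correlated at 0.991 to 0.998. Calment1/4 replicate 1 and CanS replicate 3 are called the 2 arrays that stood apart. The label is for their deviations from their group means, which went together (r = 0.54). Calment1/4 replicate 1 correlated better with CanS replicate 3 (r = 0.9949) than with its own group mates (r = 0.9942 and 0.9936). CanS replicate 3 correlated best with its own group mates (r = 0.9955 and 0.9961), so the label does not make it an outlier of its group. Its array weight in limma was 0.86, near the 0.83 of CanS replicate 1, against 0.37 for Calment1/4 replicate 1. The medians of 18 ovary, yolk and eggshell probe sets were 12.57, 13.15 and 13.33 on Calment1/4 replicates 1 to 3, and 12.51, 12.66 and 12.14 on CanS replicates 1 to 3, so these 2 arrays were the lowest of their groups. The samples carried the female yolk protein transcripts Yp1, Yp2 and Yp3 at 13.37 to 14.08, and the median of 16 testis and accessory gland probe sets was 3.49 to 3.57 on all arrays.

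How bright each probe set was against the floor of the array was asked first, since dim probe sets are compressed there. A percentile rank among all tested probe sets was used for this. Brightness also depends on the probes themselves, so these ranks do not order the receptors by expression. The probe sets of mth and mthl1 were the brightest of the family, with mean ranks of 67.0 and 67.4. Those of mthl4, mthl5 and mthl8 had mean ranks between 53.6 and 61.4, and mthl9 and 1 of the mthl10 probe sets had 41.6 and 40.7. The other mthl10 probe set had a mean rank of 27.0 and mthl2 one of 29.5. Only mthl6 lay below the 25th percentile, at 9.16, and it did so with each array left out in turn. Detection calls were not used here. The 16 male probe sets, which females should lack, ranged from 2.70 to 5.32, and values of mthl2, mthl6, mthl9 and mthl10 lie within this range. Its top came from Mst98Ca, at 5.04 to 5.32, and Acp62F, at 4.98 to 5.28. The next highest male value was 4.69, and mthl9 and mthl10 (1630665_at) were above it on every array. Only mthl6 had a mean at or below the median of the male probe sets.

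**Figure D1:**
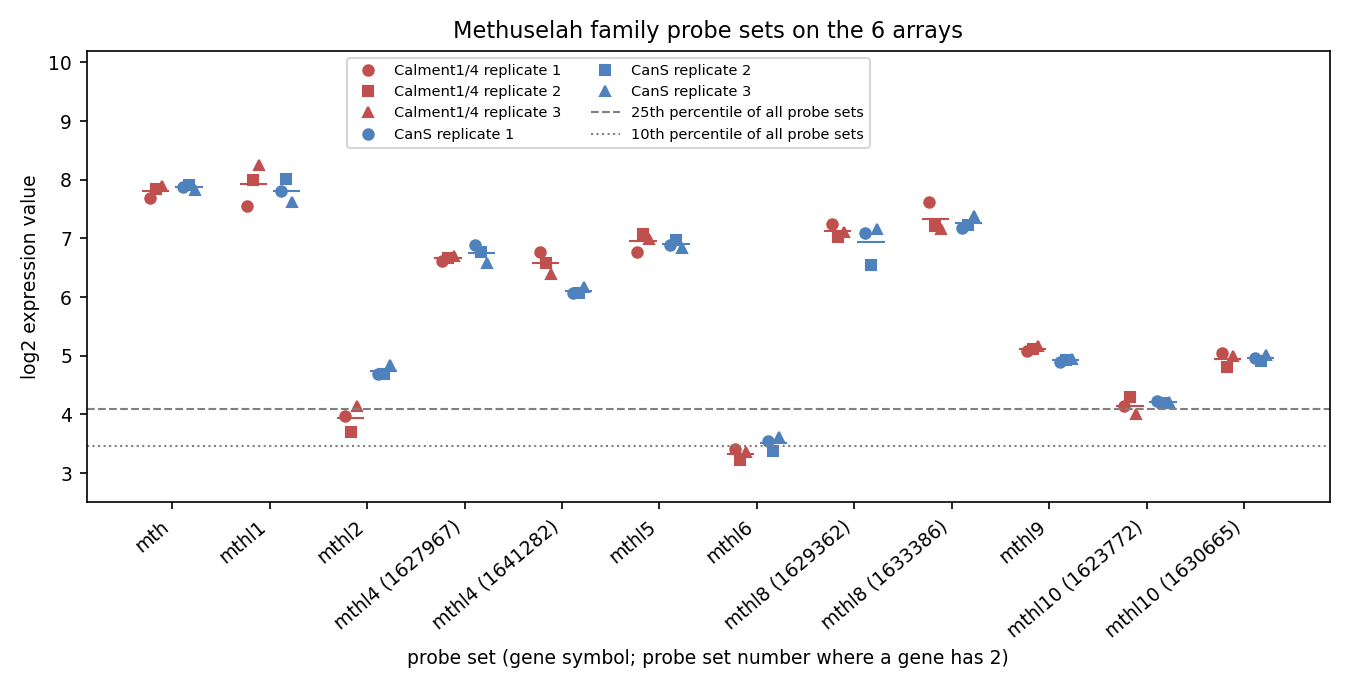
Log2 expression value of each of the 12 probe sets of the family (vertical axis) on the 3 Calment1/4 arrays (red) and the 3 CanS arrays (blue), with a symbol for each replicate number and a short line at each group mean. The stocks are separated for mthl2, for 1 of the 2 mthl4 probe sets and for mthl9, and mthl6 lies around the 10th percentile of all probe sets (dotted).

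The mthl2 probe set had values of 3.98, 3.69 and 4.14 in Calment1/4, against 4.70, 4.69 and 4.84 in CanS. All 3 Calment1/4 arrays were below all 3 CanS arrays. Calment1/4 averaged 3.94 ± 0.22 with a mean rank of 21.5, and CanS averaged 4.74 ± 0.09 with a mean rank of 37.5 (SD, n = 3 arrays each). Their difference was -0.81 (SE 0.12, 95% confidence interval -1.08 to -0.53, adjusted p = 0.0311 in limma). The Calment1/4 mean rank is under the 25th percentile, as are the values of replicates 1 and 2, but not 3, on their own arrays. The floor may affect the size of the fall, which was not tested. In pools of whole flies, fewer cells that make a transcript and less of it per cell cannot be told apart.

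The direction of mthl2 was the same in each of the 14 alternatives that kept its probe set, but its call was not. Since its groups do not overlap, leaving out arrays could not change the direction. Settings that alter only the test or the threshold could not either, so the shared direction is no support. Leaving out Calment1/4 replicate 2 gave -0.69 (adjusted p = 0.0942) and ended the call in limma. So did leaving out any 1 of the CanS arrays, with -0.83 for replicate 1 (adjusted p = 0.104), -0.83 for replicate 2 (adjusted p = 0.109) and -0.76 for replicate 3 (adjusted p = 0.110). It held without Calment1/4 replicate 1 (-0.83, adjusted p = 0.0250) and without Calment1/4 replicate 3 (-0.91, adjusted p = 0.0403). With both arrays that stood apart left out it was -0.78 (adjusted p = 0.0689).

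**Figure D2:**
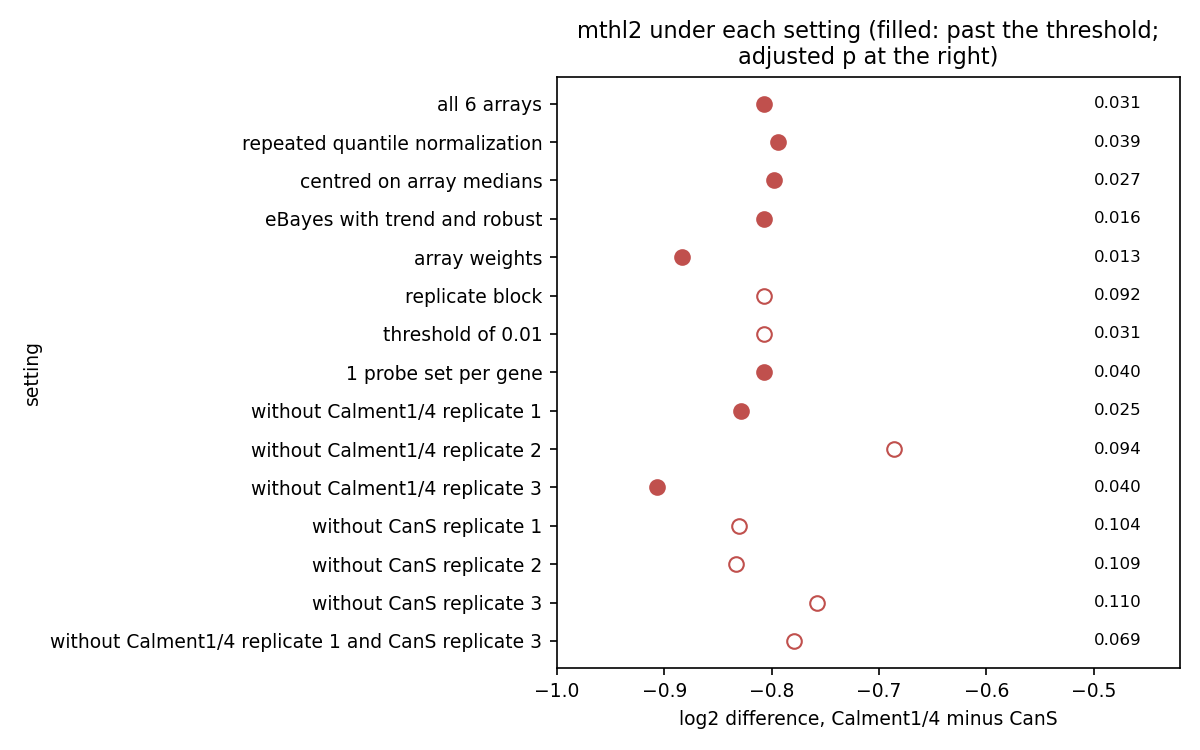
Log2 difference of mthl2, Calment1/4 minus CanS (horizontal axis), with all 6 arrays and under each alternative setting (rows), with limma's adjusted p at the right. Filled points pass the threshold of their setting and open points do not. All lie between -0.91 and -0.69.

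Some tissue markers also separated the stocks, in both directions. In the ovary, yolk and eggshell list 11 of 18 probe sets were above 0. Over all 18769 probe sets 9424 were above 0 and 9345 below. The chorion gene Cp18 was higher in Calment1/4 (0.74, adjusted p = 0.0435 in limma), while Cp16 and Cp19, at 0.85 and 0.70, did not pass. The 7 of this list below 0 included Vm32E at -0.38, Yp3 at -0.22, and Yp2 and dec at -0.17. Of 9 gut probe sets 8 were below 0, unevenly. Mal-A1, Npc2e and Jon66Ci stood at -1.47, -1.31 and -0.97. The brightest, alphaTry, betaTry and epsilonTry, stood at -0.04, -0.01 and 0.04. The list's median, which fell on Mal-A1 or Jon66Ci, was 9.83 to 10.99 on the Calment1/4 arrays, against 11.15 to 12.02 on the CanS arrays. Blood cell markers had medians of 5.98 to 6.47 in Calment1/4 and 6.99 to 7.06 in CanS, with 5 of 8 below 0. In this list the scavenger receptor Sr-CI was lower and passed (-1.24), and the transcription factor genes lz and srp stood at 0.35 and 0.27 without passing. Fat body markers had medians of 7.99 to 8.04 in Calment1/4 and 8.28 to 9.06 in CanS, with 3 of 4 below 0. Lsp2 stood at -1.36, Fbp1 at -0.55, apolpp at -0.24 and Lsd-2 at 0.002. Leaving out any 1 of 4 arrays ended the call of Cp18 (Calment1/4 replicates 2 and 3 and CanS replicates 2 and 3, adjusted p up to 0.221 in limma) and that of Sr-CI (Calment1/4 replicate 3 and each CanS array, adjusted p up to 0.0894). None passed in the gut and fat body lists (limma, 5 of 9 and 3 of 4 at an unadjusted p under 0.05). Nor did any of 13 neuron and 9 muscle probe sets (limma, 1 and 0 at an unadjusted p under 0.05). In the blood cell and ovary lists 5 of 8 and 3 of 18 were under it in limma, against 7.67% of all probe sets. Groups did not overlap for 5 of 9 gut, 5 of 8 blood cell, 2 of 4 fat body and 3 of 18 ovary, yolk and eggshell probe sets. They did not for 1 of 13 neuron and 0 of 9 muscle probe sets, against 12.6% of all. The lowest single value in the gut, blood cell and fat body lists was 3.63, and the part of these tissues in the mthl2 difference was not tested.

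For mth the values were 7.69, 7.85 and 7.89 in Calment1/4, against 7.88, 7.92 and 7.82 in CanS. The groups overlapped, and the whole range over the 6 arrays was 0.22. The difference of -0.06 (SE 0.08) had an adjusted p of 0.978 in limma. Its interval, -0.26 to 0.13, leaves out a 2-fold change in either direction. Its described ligand gene sun, which encodes the epsilon subunit of ATP synthase, had values of 6.74, 6.84 and 6.77 in Calment1/4 and 6.65, 6.75 and 6.83 in CanS, a difference of 0.04 (95% confidence interval -0.15 to 0.23). The probe set of SP, made in the male accessory gland, lay at 3.68 to 3.96 in Calment1/4 and 3.82 to 3.91 in CanS.

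The Fog receptor gene mthl1 had values of 7.55, 8.003 and 8.25 in Calment1/4, against 7.82, 8.01 and 7.62 in CanS. The arrays of a stock differed more than the stocks did. The difference was 0.12 (SE 0.18, 95% confidence interval -0.28 to 0.52), and it was -0.04 without Calment1/4 replicate 3. The ligand gene fog, a secreted signal of epithelial folding, had values of 9.79, 9.87 and 10.00 in Calment1/4, against 9.45, 9.42 and 9.23 in CanS. Here the groups did not overlap, yet the difference of 0.52 (95% confidence interval 0.30 to 0.74) did not pass (adjusted p = 0.0787 in limma). It did pass without Calment1/4 replicate 1 (0.57, adjusted p = 0.0385) and with array weights (0.53, adjusted p = 0.0196). The other Fog receptor gene, smog, differed by 0.03 (95% confidence interval -0.29 to 0.35).

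Both probe sets of mthl10, the receptor of growth-blocking peptides, lay close to equal in the stocks. One, 1623772_a_at, had values of 4.15, 4.29 and 4.01 in Calment1/4 and 4.24, 4.19 and 4.21 in CanS, a difference of -0.06 (95% confidence interval -0.27 to 0.15). The other, 1630665_at, had 5.05, 4.802 and 5.003 in Calment1/4 and 4.97, 4.91 and 5.01 in CanS, a difference of -0.01 (95% confidence interval -0.22 to 0.20). The spread was wider among the Calment1/4 arrays than among the CanS arrays in both. The peptide genes Gbp1, Gbp2 and Gbp3 differed by -0.08, -0.05 and -0.06.

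The mthl5 gene, which is needed for heart formation in the embryo and is also called Gia, had values of 6.77, 7.08 and 6.99 in Calment1/4 and 6.89, 6.97 and 6.83 in CanS. The groups overlapped and the difference was 0.05 (95% confidence interval -0.18 to 0.28, adjusted p = 0.995 in limma).

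The remaining members have no ligand that is widely known. For mthl4 the 2 probe sets disagreed. The probe set 1641282_at had values of 6.76, 6.57 and 6.39 in Calment1/4, against 6.06, 6.07 and 6.18 in CanS, while 1627967_a_at had 6.62, 6.66 and 6.70 in Calment1/4, against 6.89, 6.76 and 6.59 in CanS. The groups were separate on the first and overlapped on the second. Their differences were 0.47 (SE 0.11, 95% confidence interval 0.23 to 0.71, adjusted p = 0.149 in limma) and -0.09 (SE 0.10, 95% confidence interval -0.30 to 0.13, adjusted p = 0.954), and neither passed. The gap between the probe sets, 1641282_at minus 1627967_a_at, was 0.14, -0.09 and -0.31 in Calment1/4, against -0.83, -0.69 and -0.41 in CanS. It was wider in CanS without overlap, and an exact permutation test, two-sided, gave p = 0.1, the smallest that 3 against 3 arrays allow (adjusted p = 0.3 over the 3 genes with 2 probe sets). An _a_at probe set is designed to match several transcripts of 1 gene, and which transcripts each probe set reads was not analysed here.

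**Figure D3:**
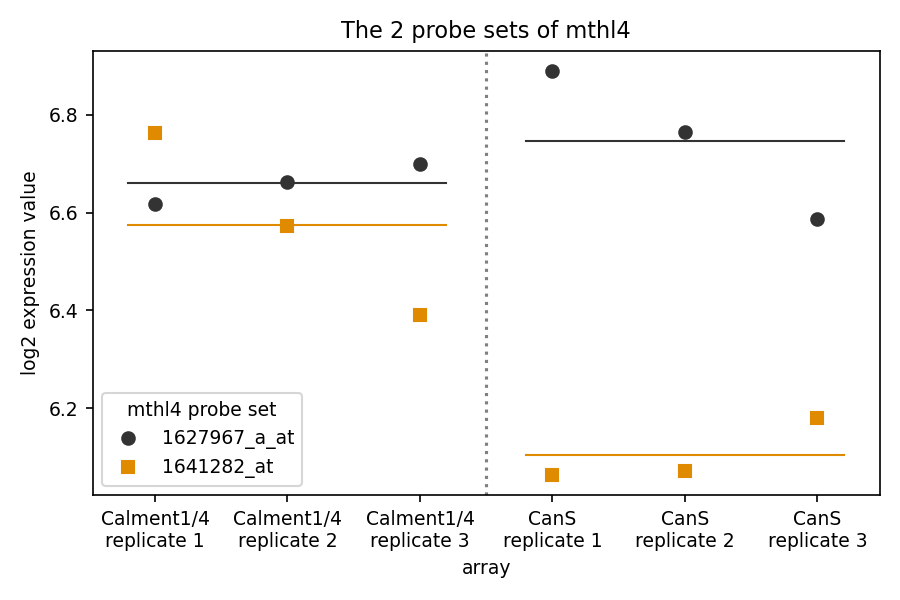
Log2 expression value (vertical axis) of the 2 probe sets of mthl4 on each array (horizontal axis), with a line at each group mean. The probe set 1641282_at lies higher in Calment1/4, between 6.39 and 6.76, than in CanS, between 6.06 and 6.18, while 1627967_a_at overlaps between the stocks.

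The probe set of mthl9 had values of 5.08, 5.11 and 5.17 in Calment1/4, against 4.90, 4.93 and 4.94 in CanS. The groups were separate by a small step, 0.20 (SE 0.07, 95% confidence interval 0.03 to 0.37), which did not pass (adjusted p = 0.527 in limma). In RefSeq's gene order for the Release 6 plus ISO1 MT assembly, mthl9, mthl10 and mth follow each other on chromosome arm 3L, so these 3 neighbours stood at 0.20, at -0.06 and -0.01, and at -0.06.

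For mthl8, the probe set 1629362_at had values of 7.25, 7.02 and 7.11 in Calment1/4 and 7.09, 6.54 and 7.17 in CanS. The low value of CanS replicate 2 sets its difference of 0.19 (95% confidence interval -0.18 to 0.57), which was -0.0025 without that array. The other probe set, 1633386_s_at, whose suffix marks probes that can match more than 1 gene, had 7.62, 7.21 and 7.15 in Calment1/4 and 7.18, 7.23 and 7.37 in CanS, a difference of 0.07 (95% confidence interval -0.23 to 0.37). The dim probe set of mthl6 had 3.41, 3.22 and 3.36 in Calment1/4 and 3.54, 3.38 and 3.62 in CanS, a difference of -0.18 (95% confidence interval -0.40 to 0.04) at the floor.

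Across the family, 1 of 12 probe sets passed, against a background of 0.464%, and at most 1 did in any setting. Groups did not overlap for 3 of 12, those of mthl2, mthl9 and mthl4 (1641282_at), where 12.6% of all probe sets did not overlap. An unadjusted p under 0.05 was reached by the same 3, against 7.67% of all. The median difference was 0.02 over the 12 and 0.00054 over all probe sets, with 6 above 0 and 6 below. The intervals of 11 probe sets left out a 2-fold change in either direction, as did those of 18426 of all 18769 probe sets. That of mthl2 did not.

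**Figure D4:**
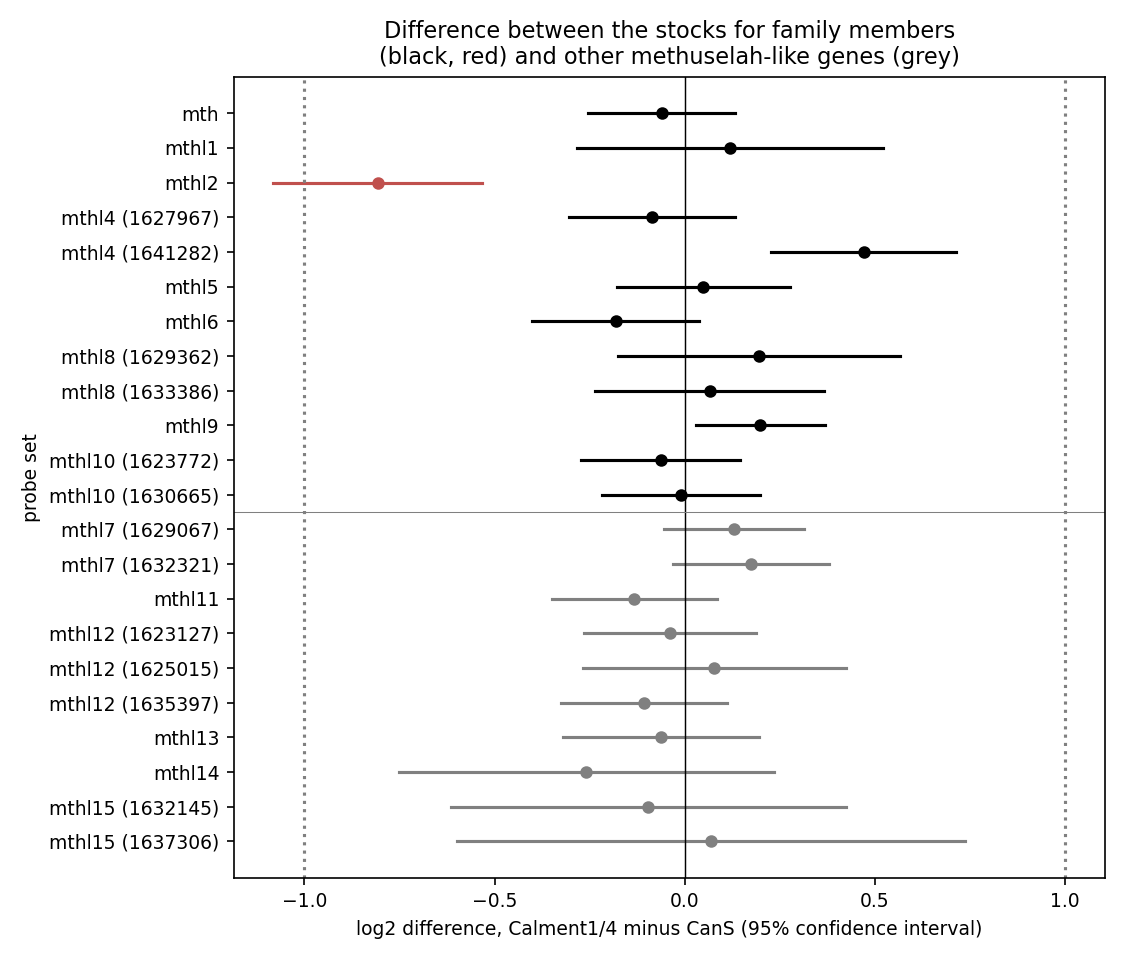
Log2 difference, Calment1/4 minus CanS (horizontal axis), with its 95% confidence interval for the 12 family probe sets (black, red where past the threshold) and for 10 probe sets of other methuselah-like genes (grey). Dotted lines mark a 2-fold change, which the interval of mthl2 alone reaches.

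The 2 arrays that stood apart also moved family members. Calment1/4 replicate 1 and CanS replicate 3 were both the lowest of their groups for mth, mthl1, mthl5 and mthl4 (1627967_a_at). They were both the highest of their groups for mthl6, for both probe sets of mthl8, for mthl4 (1641282_at) and for mthl10 (1630665_at). The widest gap of the low kind was that of mthl1, where Calment1/4 replicate 1 lay 0.57 and CanS replicate 3 lay 0.29 below the mean of their group mates. The median of the ovary, yolk and eggshell list was also lowest on both arrays, but single markers differed. Cp18 was the highest of its group on Calment1/4 replicate 1 (12.46). For mthl8 (1633386_s_at) these arrays lay 0.44 and 0.17 above. The part of ovary content, or of any other tissue, in these gaps was not tested. Without both arrays the difference was -0.030 for mth, 0.21 for mthl1, 0.10 for mthl5, 0.23 for mthl9, 0.41 for mthl4 (1641282_at), -0.15 for mthl4 (1627967_a_at) and -0.024 for mthl8 (1633386_s_at). None of these passed in limma (lowest adjusted p = 0.134).

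**Figure D5:**
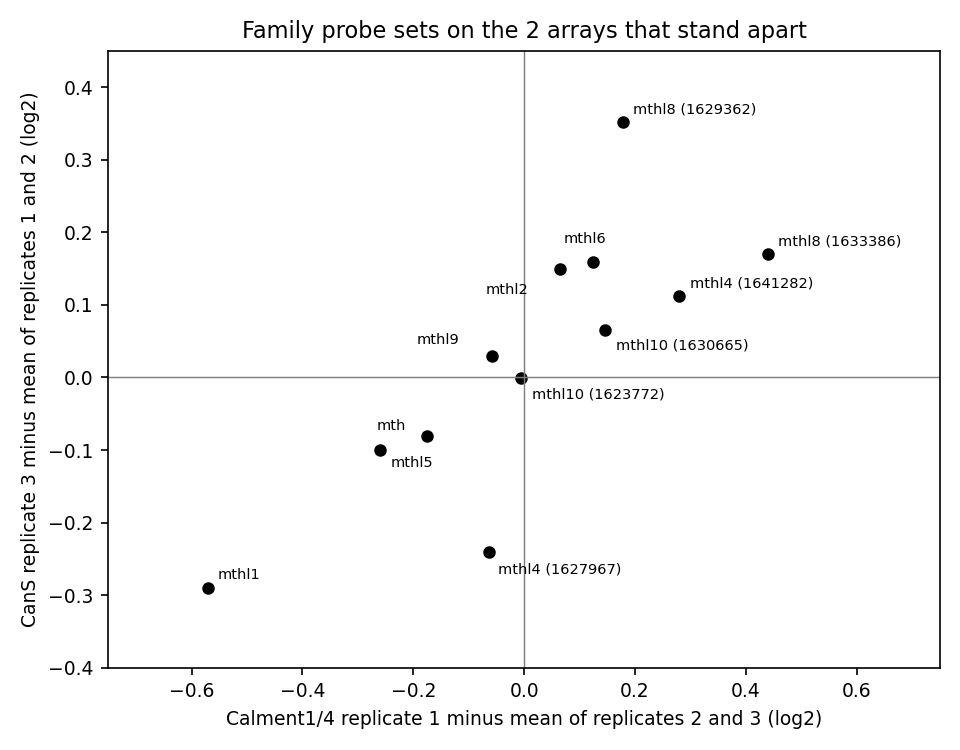
For each family probe set, the value of Calment1/4 replicate 1 minus the mean of replicates 2 and 3 (horizontal axis, log2) and of CanS replicate 3 minus the mean of replicates 1 and 2 (vertical axis, log2). Probe sets at the upper right were high on both arrays, led by mthl8, and those at the lower left were low on both, led by mthl1.

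Other genes of the receptor's surroundings were then read from 5 lists, for which 38 of 48 genes had a probe set. None of the 49 probe sets passed in limma, against 0.464% of all. Each interval left out a 2-fold change, as did those of 18426 of all 18769 probe sets. Among 6 other methuselah-like genes with 10 probe sets (median -0.05, none at an unadjusted p under 0.05), mthl7 stood at 0.17 and 0.13 on its 2 probe sets and mthl11 at -0.13. The largest spread there was that of mthl14 and mthl15, with intervals of -0.75 to 0.23 for mthl14 and of -0.60 to 0.74 for mthl15 (1637306_at). Of 7 ligand and co-receptor probe sets (median -0.04), 1 had an unadjusted p under 0.05, fog, described above.

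Of 13 probe sets of G proteins and their effectors, 10 were above 0 (median 0.07), and 1 had an unadjusted p under 0.05. That was Gbeta5, a G protein beta subunit, with 7.42, 7.56 and 7.47 in Calment1/4, against 7.03, 7.11 and 7.21 in CanS. Its groups did not overlap, and its difference of 0.36 did not pass (adjusted p = 0.173 in limma), except with array weights (0.40, adjusted p = 0.0407). The alpha subunit gene Galphaq stood at 0.24 on its probe set of smallest p, and cta, the alpha subunit that acts in the Fog pathway, at -0.03. Among 9 probe sets of receptor regulators (median 0.05, 1 at an unadjusted p under 0.05), RSG7, a regulator of G protein signalling, stood at 0.32 and the receptor kinase gene Gprk2 at 0.16.

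Other secretin-type and adhesion receptors belong to the same broad class. Their 10 probe sets, of 7 genes, had a median of 0.05 and ranged from -0.16 to 0.24, with 1 at an unadjusted p under 0.05. The diuretic hormone receptor genes Dh44-R1 and Dh44-R2 stood at 0.24 (95% confidence interval 0.01 to 0.48) and, on its probe set of smaller p, 0.16. The other Dh44-R2 probe set stood at -0.04. Whether mthl2 differed from these receptors in its response was not tested.

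The genes whose values followed those of mth and mthl2 most closely over the 6 arrays were read from 13635 probe sets, after each had been centred on its own mean. The likeness measure was the root-mean-square distance on the log2 scale. For mth these were CG5913 (0.0158), pall, a gene of phagocytosis (0.0187), and Coprox, an enzyme gene of haem synthesis (0.0188), with ranges of 0.20 for CG5913 and pall and 0.26 for Coprox over the 6 arrays. For mthl2, the member with the widest range over the arrays (1.15), they were CG13794 (0.0888), the chitinase-family gene Cht9 (0.113) and the glutathione S-transferase gene GstD5 (0.124). CG13794 had values of 6.09, 5.97 and 6.13 in Calment1/4, against 6.86, 6.88 and 7.07 in CanS. GstD5 had 5.004, 4.96 and 5.22 in Calment1/4, against 5.96, 5.75 and 6.19 in CanS. All 3 were lower in each Calment1/4 array than in each CanS array, which the likeness to mthl2 selects for.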

How the data were processed

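Expression in 6 RNA pools was read on one-colour Affymetrix arrays, and the table the authors deposited holds log2 values. Per the submitters' processing notes the tools were affy 1.36.0, RMA and MAS5. Their roles, and how the log2 values were made, are not stated there. The values look like RMA output, which equalizes arrays and compresses dim probe sets, so a shift of most transcripts at once would be hidden. Of 18952 probe sets, 183 controls were left out. Symbols came from the platform annotation, updated through gene identifiers to RefSeq, and all 9 measured members matched. Every probe set was fitted with limma 3.58.1 in R 4.3.3 (two-sided, genotype as the only term), after a test on simulated data with known changes, and figures were drawn with matplotlib 3.10.9.

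The members, lists and settings were chosen with earlier results of these data known. All members are named, and from each of the 5 lists of related genes those past the threshold or the 2 of smallest p, by the probe set of smallest p. Gbp1, Gbp2, Gbp3, SP, smog, mthl14, mthl15, cta and single tissue markers were added after their values were seen. Alternatives were repeated quantile normalization, centring on array medians, a filter on the dimmest 33.3%, eBayes with trend and robust, array weights, a replicate block, a threshold of 0.01, 1 probe set per gene and leaving out arrays. A pseudocount did not apply. The number of arrays limits the precision.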

Additional observations from a re-analysis of the deposited data

How the results depend on the processing

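Of 174 results of single members under alternative settings, 157 kept the direction and the side of the threshold. In several settings the difference itself could not change, so only the call was open. These were the filter, eBayes with trend and robust, the replicate block, the threshold of 0.01 and 1 probe set per gene. The call of mthl2 was lost with the replicate block (-0.81, adjusted p = 0.0922), at the threshold of 0.01 (-0.81) and without Calment1/4 replicate 1 and CanS replicate 3 (-0.78), and its difference ranged from -0.91 to -0.69 with single arrays left out. The count of members called was 0 in these settings, 0 when the dimmest 33.3% of probe sets, mthl2 included, were removed, and 0 to 1 with single arrays left out. Differences that changed sign, none of them called, ranged with single arrays left out from -0.037 to 0.31 for mthl1, from -0.017 to 0.14 for mthl5, from -0.0025 to 0.31 for mthl8 (1629362_at), from -0.081 to 0.15 for mthl8 (1633386_s_at), from -0.13 to 0.0063 for mthl10 (1623772_a_at) and from -0.060 to 0.063 for mthl10 (1630665_at). Signs also changed for mthl8 (1633386_s_at) with array weights (-0.033) and without Calment1/4 replicate 1 and CanS replicate 3 (-0.024), and for mthl10 (1630665_at) after repeated quantile normalization (0.0067). The cause was not tested.

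Over all probe sets the count of 87 became 337 with array weights, 30 with the replicate block, 38 at the threshold of 0.01, 228 without Calment1/4 replicate 1 and CanS replicate 3, and 38 (without Calment1/4 replicate 2) to 281 (without Calment1/4 replicate 1) with single arrays left out. It was also 54 without CanS replicate 3 and 45 without Calment1/4 replicate 3. The count of 38 at least 2-fold became 83 with array weights, 96 without the pair, and 31 to 94 with single arrays left out, the last without Calment1/4 replicate 1. In the pathway lists 2 probe sets passed with array weights, and 0 to 1 with single arrays left out. Samples with the same number did not deviate together (r = -0.29, 0.20 and -0.43), so the replicate block rests on a shared number only.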

Other observations

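The protein-coding genes next to mthl2 in RefSeq order on chromosome arm 3L were read after its values were seen. CG10591, the second gene on one side, had values of 5.25, 5.18 and 5.18 in Calment1/4, against 5.44, 5.92 and 6.32 in CanS. Its groups did not overlap, and its difference of -0.69 did not pass (adjusted p = 0.288 in limma). The nearer gene on that side, TM9SF3, stood at 0.12, and on the other side Eaf6 stood at -0.05 and Blimp-1 at 0.08, all with overlapping groups.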
